A study of Homo sapiens with 54 samples.

Results

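Before DNA is copied, replication origins are licensed and then turned into moving forks, and 42 genes of that machinery, named by symbol, were followed among the 33119 genes of the count tables. All 42 were present in both tables. By role they comprised 11 licensing genes, 8 genes of origin firing, 7 subunits of the replicative polymerases and primase, 7 genes of the sliding clamp and lagging strand, 4 fork-protection genes, 4 genes that rebuild chromatin behind the fork, and FAM111B, a serine protease related to FAM111A, which acts at replication forks.

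RNA came from 6 established human cancer cell lines: the colorectal lines SW48 and SW620, the stomach lines NCI-N87 and MKN-45, and the breast lines BT-20 and BT-474. In set 1, SW48 and SW620 were given trametinib, which blocks the kinase MEK of the MAP kinase cascade, and compared with control cells of the same line. In set 2, the same lines were given palbociclib, which blocks CDK4 and CDK6, or trametinib, and the stomach and breast lines were given afatinib, which blocks EGFR and ERBB2 covalently, each beside controls of its own line. All groups grew in DMEM with serum and antibiotics, each group held 3 libraries, and the 54 libraries fall into 18 groups; each line descends from 1 tumour, and neither doses, exposure times nor the treatment of controls are stated in the labels read here. No label says whether libraries of one group came from separate cultures. The p-values therefore measure only the spread among these samples, which may be technical.

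Licensing takes place in G1 phase, when the origin recognition complex with CDC6 and CDT1 loads rings of the MCM2 to MCM7 helicase onto DNA, and geminin (GMNN) later binds CDT1 to prevent a repeat. At the start of S phase the DBF4-dependent kinase CDC7 and cyclin-dependent kinases recruit CDC45 and the GINS complex with the help of MCM10, which turns the loaded rings into active helicases. DNA polymerase alpha with primase starts each strand, polymerases epsilon and delta extend it on the PCNA clamp loaded by the RFC complex, and FEN1 and LIG1 join the lagging-strand pieces. Many of these genes are textbook targets of E2F transcription factors, which the retinoblastoma protein RB restrains until cyclin D with CDK4 or CDK6 phosphorylates it.

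Library depth ranged from 4063382 to 10622670 counts in set 1 and from 3401565 to 12806042 counts in set 2. Levels are given as CPM, counts relative to the TMM-scaled library total, or to the plain total for marker genes of cell type and line. Because the kit reads transcript ends, levels are not per length and are compared only within a gene. The epithelial gene EPCAM was present in controls of every line (means of 268 to 804 CPM). Some set 1 libraries differed from set 2 libraries of the same label: ERBB2 averaged 942 CPM in SW48 controls of set 1 and 102 CPM in those of set 2, and CDX2, an intestinal transcription factor, averaged 2.77 and 30.1 CPM in the SW620 controls of the sets. The sets were therefore fitted apart and are reported side by side.

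In control cells of set 2 the replication genes stood lowest in BT-20 for 38 of the 42 and highest in MKN-45 for 15 or in SW620 for 14. The shares of all genes lowest or highest in those lines are not given here. Whether this order is particular to the set was therefore not tested. All 42 differed among the 6 lines in edgeR's quasi-likelihood test at an adjusted p (Benjamini-Hochberg, over all genes) under 0.05, but so did 97.1% of the 15211 genes tested, a share close to that of the set.

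**Figure D1:**
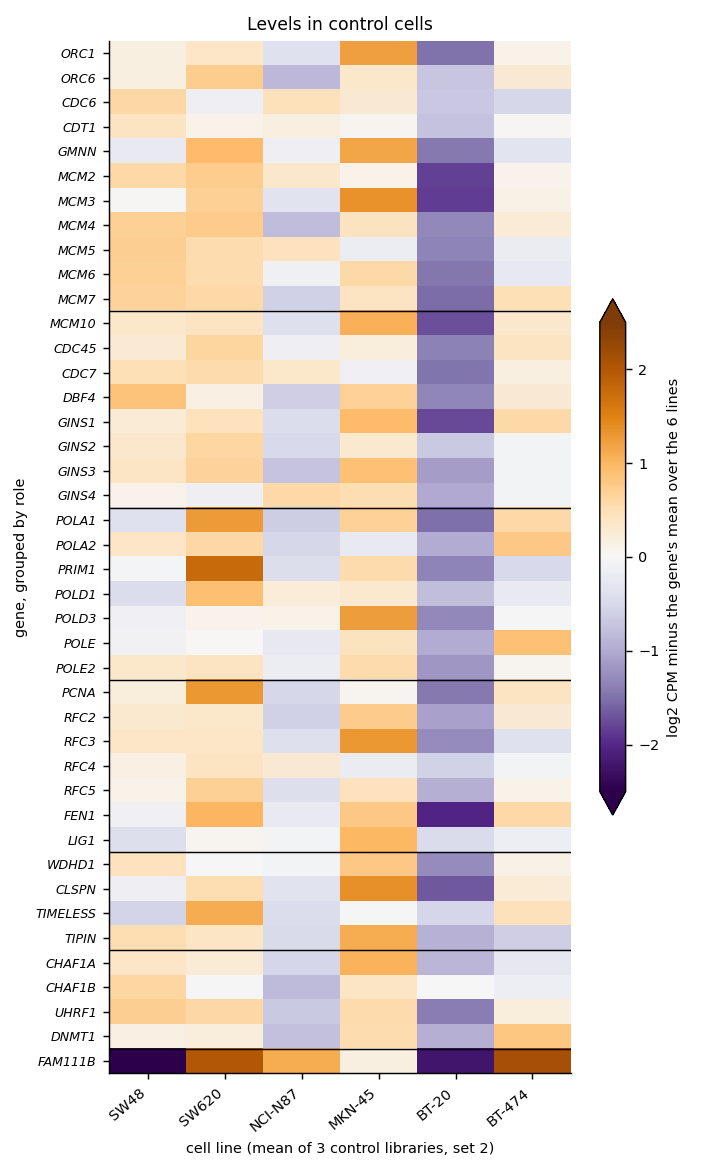
Levels of the 42 genes in control cells of the 6 lines in set 2, each cell the log2 of the mean CPM of 3 libraries minus the gene's mean over the lines, with genes grouped by role between the black lines. The BT-20 column holds the lowest value of its row for 38 genes, and FAM111B departs from that order with its lowest level in SW48.

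FAM111B had the widest range between lines, 38.7-fold, from 3.81 ± 0.44 CPM in SW48 to 147 ± 12.2 CPM in BT-474 (SD, n = 3 each). Its BT-474 and SW620 libraries overlapped. The next widest were MCM3, a helicase subunit (9.05-fold, 569 ± 51.0 CPM in MKN-45 and 62.9 ± 4.46 CPM in BT-20), and PRIM1, the catalytic primase subunit (8.68-fold, 70.6 ± 13.7 CPM in SW620 and 8.13 ± 2.90 CPM in BT-20). FEN1, CLSPN, which relays fork stress to the kinase CHEK1, and POLA1, the catalytic subunit of polymerase alpha, spanned 8.19-, 8.16- and 6.88-fold, each lowest in BT-20. The narrowest ranges belonged to RFC4 (1.98-fold), CDT1 (2.23-fold), GINS2 (2.43-fold) and CDC6 (2.44-fold). CDT1 averaged 75.4 CPM in SW48, the highest, and 33.9 CPM in BT-20. For CDT1, libraries of adjacent lines overlapped at 4 of the 5 steps of that order, and for POLA2 at none.

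The promoter windows show what many of these genes share in sequence. Windows from 250 bases before to 50 bases after the start were available for 37 of the 42 genes in RefSeq (GRCh38.p14). An exact E2F word (TTTCCCGC, TTTCGCGC, TTTGCCGC or TTTGGCGC, read on both strands, where a palindromic overlap can give 2 hits in 12 bases) lay in 19 of the 37, or 51.4%, against 1164 of all 35116 windows, or 3.3%. CCAAT, the NF-Y word, lay in 54.1% of the 37 against 34.6% of all windows, and GGGCGG, the SP1 word, in 75.7% against 45.0%. TTTGAA, the core of the CHR element of mitotic genes, lay in 2.7%, against 15.2%. A match is a description of letters, not of binding. The stretches upstream of the start used by that table are given here for genes the results turn on, 5′ to 3′ on the gene's strand, with E2F words in capitals, and PRIM1 is shown because it holds none of them.
CDT1: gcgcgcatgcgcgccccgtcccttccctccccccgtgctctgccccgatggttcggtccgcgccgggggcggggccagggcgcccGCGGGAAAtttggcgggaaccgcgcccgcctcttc
MCM6: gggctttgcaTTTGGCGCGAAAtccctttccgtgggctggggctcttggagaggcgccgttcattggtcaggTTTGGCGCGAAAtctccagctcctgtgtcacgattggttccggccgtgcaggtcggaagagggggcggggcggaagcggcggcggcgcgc
GINS2: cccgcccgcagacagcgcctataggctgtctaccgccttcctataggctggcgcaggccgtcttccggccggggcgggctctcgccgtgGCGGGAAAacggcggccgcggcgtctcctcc
POLA2: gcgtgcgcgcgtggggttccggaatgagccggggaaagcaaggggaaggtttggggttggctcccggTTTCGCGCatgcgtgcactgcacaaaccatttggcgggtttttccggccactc
PRIM1: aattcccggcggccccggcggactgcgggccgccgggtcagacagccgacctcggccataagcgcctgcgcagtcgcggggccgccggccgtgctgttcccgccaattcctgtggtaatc
PCNA: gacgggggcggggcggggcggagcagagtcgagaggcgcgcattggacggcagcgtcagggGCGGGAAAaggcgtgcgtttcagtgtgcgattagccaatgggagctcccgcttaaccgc
LIG1: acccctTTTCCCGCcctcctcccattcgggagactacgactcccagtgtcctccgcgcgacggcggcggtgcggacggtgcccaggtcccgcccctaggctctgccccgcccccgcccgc
UHRF1: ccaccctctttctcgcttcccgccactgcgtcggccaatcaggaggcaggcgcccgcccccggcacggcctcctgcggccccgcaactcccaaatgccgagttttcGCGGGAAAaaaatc
They lie at chr16:88803669-88803788 (CDT1, plus strand), chr2:135876444-135876605 (MCM6, minus strand), chr16:85688955-85689074 (GINS2, minus strand), chr11:65261842-65261961 (POLA2, plus strand), chr12:56752324-56752443 (PRIM1, minus strand), chr20:5126623-5126742 (PCNA, minus strand), chr19:48170345-48170464 (LIG1, minus strand), chr19:4909381-4909500 (UHRF1, plus strand). MCM6 carried 2 pairs of overlapping words, each pair a single run of TTTGGCGCGAAA, and CDT1, GINS2, PCNA and UHRF1 each carried GCGGGAAA, which is TTTCCCGC read from the other strand. The UHRF1 stretch lies inside the annotated span of the gene (4903080 to 4962154), before a start within it.

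The number of genes that changed, and the direction, differed between drugs and lines. Afatinib in BT-474 lowered nearly the whole set, and palbociclib lowered most of it in both colorectal lines. Trametinib in SW48 mostly raised the genes called in set 1. In set 2 its calls there went both ways, and their share was close to that of all genes. No call was made with trametinib in SW620 or with afatinib in the other 3 lines. Every one of the 42 genes passed the filter on low counts in every comparison. In bulk RNA, fewer cells of a kind (such as cells in S phase) and less RNA per cell cannot be told apart, and this holds for every fold change below.

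**Figure D2:**
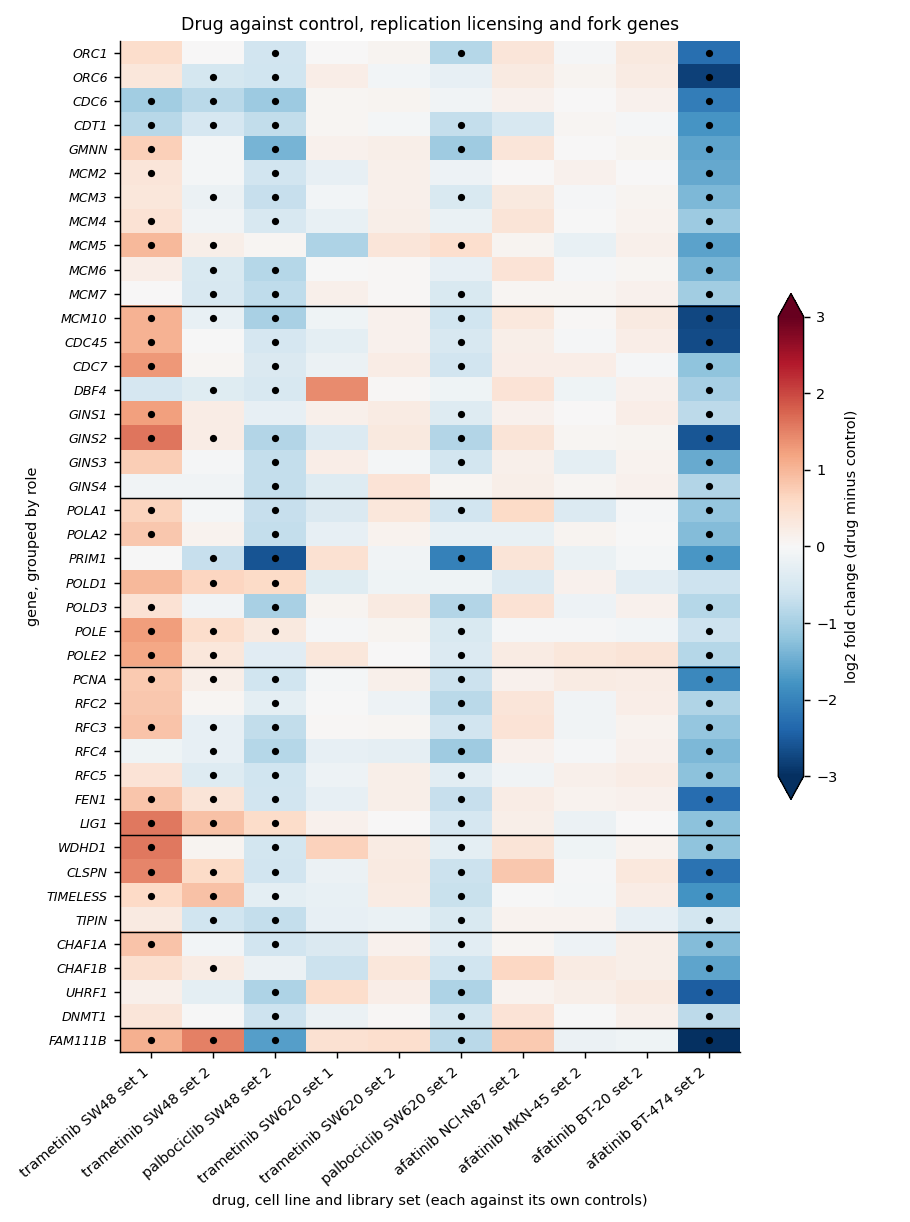
Log2 fold change of each of the 42 genes (rows, grouped by role) with each drug against the controls of its own line and set (columns), as colour from −3 to 3, with a black dot where the adjusted p was under 0.05. The afatinib column of BT-474 is blue throughout with 41 dots, the palbociclib columns carry 38 and 33 dots, and 5 columns carry none.

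Afatinib lowered 41 of the 42 genes in BT-474, a breast line with 1042 CPM of ERBB2, an afatinib target, in its controls, and raised none; 42.7% of the 12768 genes tested were called and 21.8% were lower. The median over the 42 genes was −1.35 on the log2 scale against 0.01 over all genes tested, and 33 genes were at least 2-fold lower. The drug and control libraries of 41 genes did not overlap, with every afatinib library below, which was true of 27.1% of all genes tested, while 0 lay wholly above (26.3% of all genes). POLD1, the catalytic subunit of polymerase delta, was the exception, with 5.84, 6.22 and 4.27 CPM in afatinib libraries and 11.1, 8.50 and 5.66 CPM in controls (log2 fold change −0.62, SE 0.27, adjusted p = 0.079).

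FAM111B (chromosome 11, 59107237 to 59127412) showed the largest change of the set, with 3.78, 3.11 and 5.42 CPM in afatinib libraries of BT-474 and 150.5, 134 and 158 CPM in its controls. It was 35.4-fold lower (log2 fold change −5.14, SE 0.14, adjusted p = 1.2e-10), and BT-474 was the line in which its control level was highest.

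All 11 licensing genes were lower in afatinib-treated BT-474, by −1.05 to −2.80 on the log2 scale. ORC6 (chromosome 16, 46689659 to 46698394), the smallest subunit of the origin recognition complex, had 8.25, 9.86 and 6.73 CPM with afatinib and 58.6, 56.3 and 59.2 CPM in controls (−2.80, SE 0.12, adjusted p = 5.6e-09). ORC1, the subunit that helps load CDC6, fell by 2.26 and CDC6 (chromosome 17, 40287879 to 40304657), the loading ATPase, by 2.07. CDT1, the loading partner of CDC6, averaged 16.9 ± 0.84 CPM with afatinib and 58.7 ± 4.21 CPM in controls (−1.78, adjusted p = 4e-08), and its inhibitor GMNN fell by 1.57 beside it. Among helicase subunits the decrease ran between MCM7 (−1.05) and MCM5 (−1.60).

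Of the 8 firing genes, all fell in BT-474. MCM10 had 10.3, 13.5 and 9.85 CPM with afatinib and 81.3, 69.8 and 72.5 CPM in controls (−2.72, SE 0.12, adjusted p = 7.9e-09). CDC45, a core part of the active helicase, had 2.92, 5.36 and 6.40 CPM with afatinib and 34.9, 32.6 and 27.5 CPM in controls (−2.67, SE 0.20). For both genes the afatinib libraries lay several-fold below each control. The GINS subunits were unequal: GINS2 fell by 2.57 and GINS3 by 1.51, GINS4 by 0.88 and GINS1 by 0.78. The kinase CDC7 fell by 1.22 and its activator DBF4 by 1.0.

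At the fork itself, 6 of 7 polymerase and primase genes fell, with a median of −0.86. PRIM1 fell by 1.75 and POLA1 by 1.16, while POLE, the catalytic subunit of polymerase epsilon, fell by 0.62. All 7 clamp and lagging-strand genes fell, led by the flap nuclease FEN1, with 45.9, 51.2 and 35.3 CPM with afatinib and 210.3, 217 and 221 CPM in controls (−2.28, SE 0.11, adjusted p = 1e-08). PCNA, the clamp, averaged 46.7 ± 1.93 CPM with afatinib and 180.5 ± 20.8 CPM in controls (−1.94, SE 0.09). Fork protection was split, with CLSPN at −2.21 and TIMELESS at −1.78 but TIPIN, the partner of TIMELESS, at −0.55 (adjusted p = 0.038). Behind the fork, UHRF1, which guides the maintenance methylase DNMT1 to new DNA, fell by 2.46 and DNMT1 by 0.79, while CHAF1B, a histone chaperone subunit, fell by 1.57.

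Other cell-cycle genes in afatinib-treated BT-474 were read from lists chosen with earlier results known. All 20 G2/M and mitosis genes fell (median −2.61), among them KIF20A, a mitotic kinesin (−3.69), and the kinase PLK1 (−3.53). Of 9 tested genes of deoxynucleotide synthesis 8 fell, led by DUT, which removes dUTP (−3.64), and TK1, a thymidine kinase (−2.74). Among 28 further replication genes 20 fell and 1 rose, with the histone chaperone ASF1B at −2.66 and TOP2A, a topoisomerase, at −2.61, and the list's median of −0.51 lay nearer zero than that of the 42 genes. E2F1 itself fell by 2.52, one of 9 genes that fell among 15 tested of RB, E2F and cyclin E. Of 7 CDK inhibitors 3 fell and 1, CDKN1C, rose by 2.0. Depth was 5765064 to 6228509 counts in afatinib libraries and 7487141 to 8137276 counts in controls, and its part was not tested. Fibroblast markers summed to 36.9 to 49.4 CPM in afatinib libraries and 30.4 to 33.9 CPM in controls, with PDGFRB at 0 in the afatinib libraries and LUM at 0 in controls, and leukocyte markers to 7.39 to 9.54 and 1.5 to 5.88 CPM, with CD3E at 0 in both; their part in the result was not tested.

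In BT-20, a breast line with 492 CPM of EGFR, another afatinib target, and 126 CPM of ERBB2 in its controls, none of the 42 genes was called with afatinib; 0.585% of all genes tested were (0.312% lower), and 5 of the 42 had an unadjusted p under 0.05, all higher, against 12.5% of all genes. DESeq2 also called none of the 42, and 163 of all genes. Afatinib libraries lay wholly above the controls for 6 of the 42 (8.05% of all genes) and below for 1 (9.96%). The change itself differed between the breast lines: in the test of the afatinib effect in BT-474 minus that in BT-20, 39 of the 42 genes were lower and none higher, where 13.6% of 14019 genes were lower. FAM111B had 6.12, 7.48 and 6.37 CPM with afatinib and 5.78, 7.57 and 8.49 CPM in BT-20 controls, so its libraries overlapped there, and the difference between the lines was −5.03 (SE 0.25, adjusted p = 4.2e-10). ORC6 (−3.06), MCM10 (−3.0), CDC45 (−2.89), UHRF1 (−2.75) and GINS2 (−2.67) followed. POLD1, POLE and TIPIN did not pass that test.

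**Figure D3:**
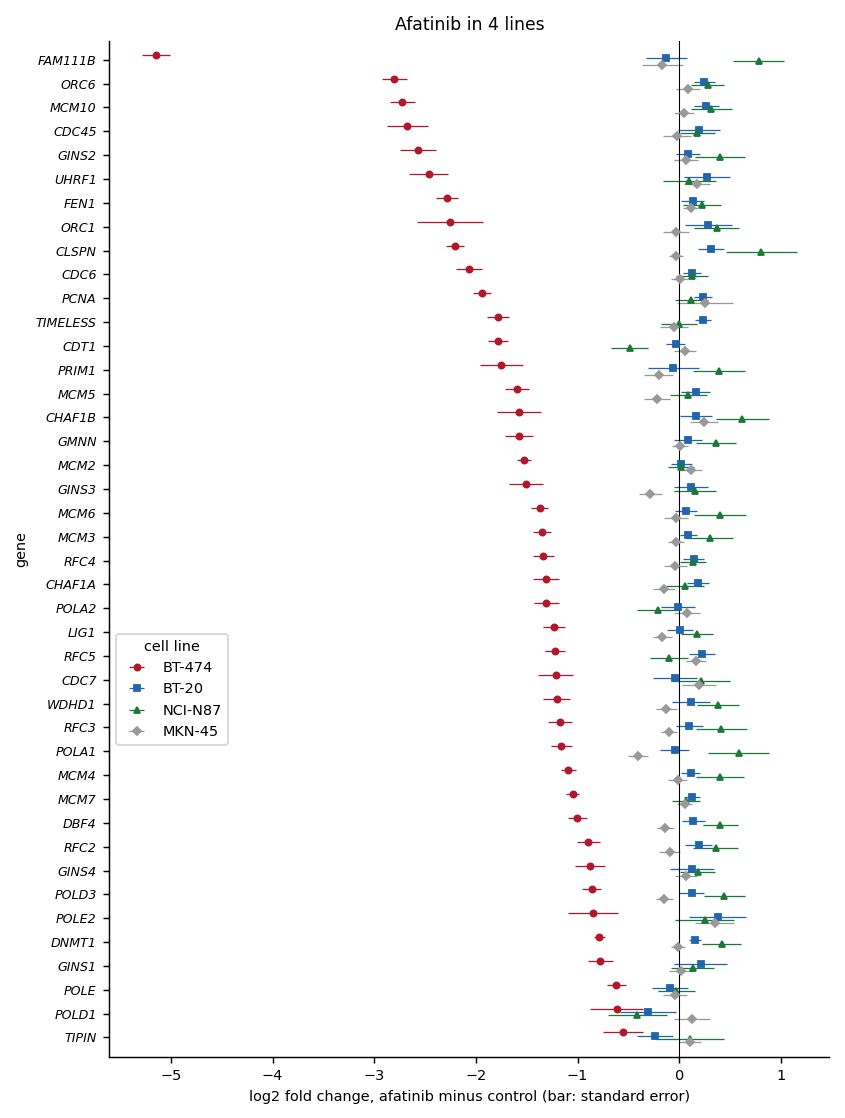
Log2 fold change with afatinib for each of the 42 genes (rows, ordered by the BT-474 value) in the 4 lines that received it, with bars for the standard error. The BT-474 points run from −5.14 to −0.55, while the points of the other lines lie between −0.49 and 0.80.

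ERBB2 averaged 2054 CPM in NCI-N87 controls and 83.8 CPM in MKN-45 controls. In these stomach lines no gene of the set was called with afatinib, and no gene at all was (0% of 12472 in NCI-N87 and 0% of 12358 in MKN-45). Before adjustment, 1523 genes in NCI-N87 (5 of them in the set) and 664 in MKN-45 (2 of them in the set) had p under 0.05; DESeq2 called 37 and 0 genes, none of them in the set. The median over the 42 genes was 0.22 in NCI-N87 and −0.01 in MKN-45. In NCI-N87, afatinib libraries lay wholly above the controls for 1 gene (7.86% of all genes) and below for 1 (7.96%), and in MKN-45 above for 2 (6.06%) and below for 6 (6.81%). The NCI-N87 controls were not alike: control 1 stood 0.32 above the control mean over the 42 genes on the log2 scale, and controls 2 and 3 stood 0.15 and 0.17 below it. Mitochondrial ribosomal RNA (RNR1 and RNR2) made up 8.14% of counts in control 1 and 3.39% and 3.18% in the others, and between 4.96% and 10.3% in the afatinib libraries; its part was not tested.

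Without NCI-N87 control 1, 17 of the 42 genes were called with afatinib, 16 higher and 1 lower, where 16.4% of 12850 genes were called (8.19% higher). CLSPN led, with 112, 102 and 142 CPM with afatinib and 117, 46.4 and 41.7 CPM in controls 1 to 3 (0.80, adjusted p = 0.40 with all libraries; 1.42, adjusted p = 0.00092 without control 1). FAM111B (1.12) and POLA1 (1.08) were next, and CDT1 was the gene called lower (−0.64). The same omission gave 13 genes called higher for the afatinib effect in NCI-N87 minus that in MKN-45, where 5.8% of genes were, while with all libraries 0 were called, as were 0.0145% of all genes; 6 of the 42 (5 higher, 1 lower) had an unadjusted p under 0.05 there, against 11.4% of all genes. The library was singled out after its values were seen. It stood highest of the controls over these same genes, so leaving it out lowers the control mean. The controls left held 3.39% and 3.18% of RNR1 and RNR2, below the 4.96% to 10.3% of the afatinib libraries. Drug and that share cannot be told apart in this fit, and its part was not tested.

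**Figure D4:**
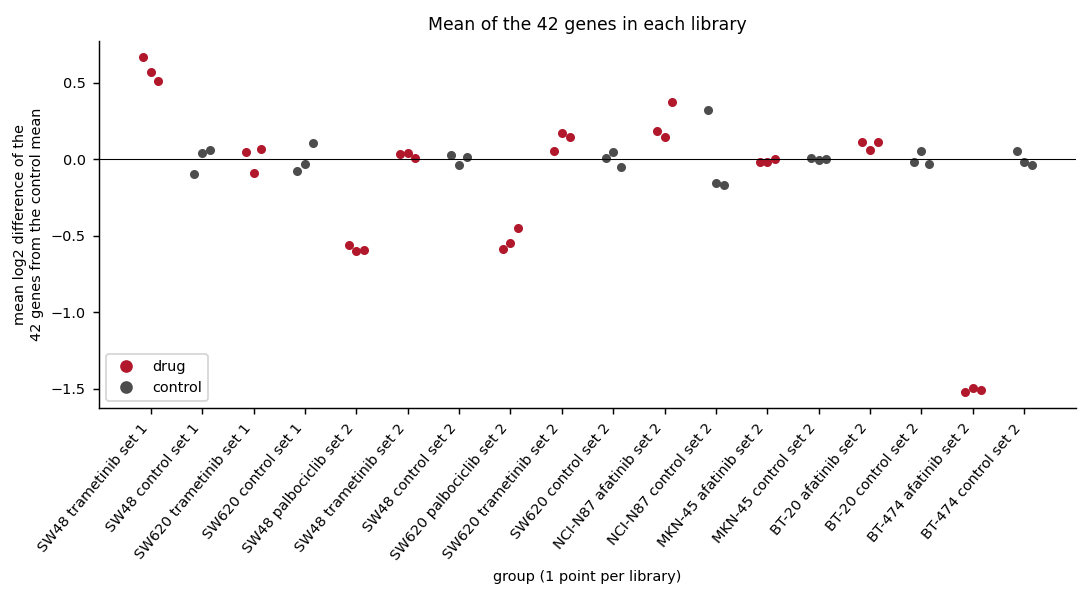
Mean over the 42 genes of the log2 difference (CPM + 1) from the control mean of the same line and set, one point per library, drug groups in red and controls in grey. The BT-474 afatinib libraries lie near −1.5, the palbociclib libraries between −0.60 and −0.45, and NCI-N87 control 1 sits apart from controls 2 and 3.

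Palbociclib and trametinib shared their set 2 controls in each colorectal line, so their values are given side by side. Palbociclib lowered 35 of the 42 genes and raised 3 in SW48, where 57.5% of 12690 genes were called, 29.2% lower and 28.3% higher. In SW620 it lowered 32 and raised 1, where 35% of 13068 genes were called, 17.4% lower and 17.6% higher. The medians over the set were −0.60 and −0.53 on the log2 scale, against 0.01 and 0.00 over all genes tested. Palbociclib libraries lay wholly below the controls for 36 genes in SW48 (31.2% of all genes) and for 35 in SW620 (25.3%). In both lines 27 of the genes fell, and LIG1 and POLE rose in SW48 and fell in SW620, though the rise of POLE lost its call in 5 of the alternatives. The share of all genes that fell in both lines is not given here, so the count of 27 has no baseline.

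PRIM1 (chromosome 12, 56731580 to 56752323) fell most in both lines. In SW48 it had 4.31, 3.01 and 2.66 CPM with palbociclib and 21.0, 17.8 and 21.3 CPM in controls (log2 fold change −2.59, SE 0.18, adjusted p = 2.9e-08). In SW620 it had 16.5, 13.5 and 21.1 CPM with palbociclib and 76.3, 80.6 and 55.0 CPM in controls (−2.02, SE 0.18, adjusted p = 2e-05). In each line every palbociclib library lay below every control. The end of PRIM1 overlaps exons of NACA, a ribosome-associated chaperone subunit, on the same strand, so its counts are uncertain; NACA averaged 453 ± 15.4 CPM with palbociclib and 635 ± 66.7 CPM in SW48 controls (−0.50, adjusted p = 3.4e-05) and changed by −0.68 in SW620.

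Among licensing genes, 10 of 11 fell in SW48 and 5 of 11 in SW620, where 1 rose. GMNN (chromosome 6, 24774937 to 24786099) had 21.3, 16.8 and 20.1 CPM with palbociclib and 53.4, 50.1 and 47.6 CPM in SW48 controls (−1.39, SE 0.10, adjusted p = 3.4e-08), and it fell by 1.07 in SW620. CDT1 fell by 0.75 in SW48 and by 0.71 in SW620. CDC6 fell by 1.10 in SW48, with 53.7, 49.5 and 41.5 CPM with palbociclib and 100.1, 103 and 105 CPM in controls, but had 55.4, 58.5 and 57.0 CPM with palbociclib and 60.0, 60.9 and 65.2 CPM in SW620 controls (−0.10, adjusted p = 0.38). MCM5 had 114, 97.7 and 102 CPM with palbociclib and 80.5, 65.7 and 78.5 CPM in SW620 controls; it was the gene that rose there (0.50, SE 0.10, adjusted p = 0.0031), and it stood at 0.06 in SW48 (adjusted p = 0.58). MCM2 fell by 0.58 in SW48 and was at −0.16 in SW620 (adjusted p = 0.19).

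Of the firing genes, 7 of 8 fell in SW48 and 6 of 8 in SW620. MCM10 averaged 38.9 ± 2.83 CPM with palbociclib and 75.4 ± 3.82 CPM in SW48 controls (−0.96), and fell by 0.60 in SW620. GINS2 fell by 0.87 and 0.89 in the lines, with 20.9, 21.7 and 21.5 CPM with palbociclib and 38.7, 38.9 and 38.9 CPM in SW48 controls. CDC45 fell by 0.51 and 0.48, and CDC7 by 0.44 and 0.56. GINS4 fell by 0.71 in SW48 but stood at 0.07 in SW620 (adjusted p = 0.76).

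Of the polymerase genes POLD3, an accessory subunit of polymerase delta, fell by 0.98 in SW48 and 0.88 in SW620, and POLD1 and POLE rose in SW48 by 0.58 and 0.30, though libraries of both overlapped between the groups. POLD1 lost that call in 3 of the alternatives (lowest value 0.39) and POLE in 5 (lowest value 0.20). LIG1 (chromosome 19, 48115445 to 48170344), the ligase that seals lagging-strand pieces, had 43.8, 37.6 and 40.1 CPM with palbociclib and 26.8, 29.4 and 25.9 CPM in SW48 controls, a rise of 0.55 (SE 0.09, adjusted p = 0.00013) with no overlap. In SW620 LIG1 had 22.0, 28.0 and 29.5 CPM with palbociclib and 33.3, 35.9 and 45.0 CPM in controls, lower by 0.51 on the log2 scale (adjusted p = 0.021). The other 6 clamp and lagging-strand genes fell in both lines, RFC4, a clamp-loader subunit, by 1.06 in SW620. All 4 fork-protection genes fell in both lines, and UHRF1 fell by 0.93 in each, losing its call in SW620 (−0.78) without control 1. FAM111B had 1.40, 1.29 and 0.925 CPM with palbociclib and 3.36, 4.25 and 3.83 CPM in SW48 controls (−1.66, SE 0.33), and averaged 76.1 ± 8.6 CPM with palbociclib and 136 ± 14.5 CPM in SW620 controls (−0.81, SE 0.11). Its SW48 values rest on low counts, so the size of the fall there is uncertain.

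**Figure D5:**
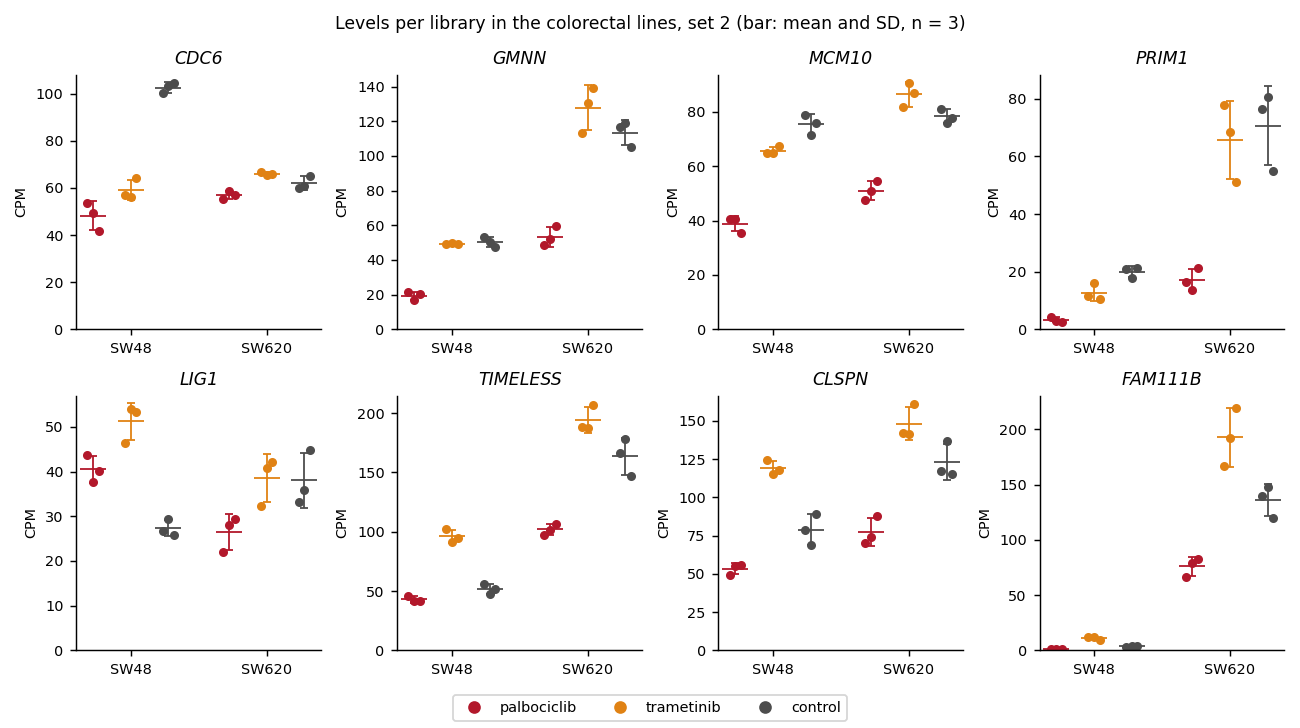
CPM of 8 of the genes in each library of SW48 and SW620 in set 2, with palbociclib, trametinib and control from left to right in each line and bars for the mean and SD of 3 libraries. PRIM1 and GMNN are low with palbociclib in both lines, CDC6 is low with both drugs in SW48, and LIG1 and TIMELESS are raised with trametinib in SW48.

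The difference of the palbociclib effect, SW620 minus SW48, was called for 13 of the 42 genes (9 higher, 4 lower), where 25.7% of 14098 genes were called. CDC6 (1.01, SE 0.12, adjusted p = 2.4e-05), GINS4 (0.79) and MCM6 (0.62) were less reduced in SW620, as was FAM111B (0.85, adjusted p = 0.033). The FAM111B value rests in part on low counts in SW48. LIG1 (−1.05, SE 0.18, adjusted p = 0.00053), POLE (−0.74), RFC2 (−0.50) and TIMELESS (−0.37) were lower in SW620. Calls were lost for TIMELESS in 9 of the alternatives (among them the replicate block), for RFC2 in 8 and for FAM111B in 7. Without SW48 control 1 or SW48 control 2 the count was 8.

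Other proliferation genes fell with palbociclib as well: 16 of 20 G2/M and mitosis genes in SW48 and 19 of 20 in SW620, with medians of −0.48 and −0.61. Further replication genes fell in 19 of 28 cases in SW48, with 2 higher, and in 11 of 28 in SW620, with 3 higher; NASP, a histone chaperone, fell by 0.97 and 0.96. Of 9 deoxynucleotide synthesis genes 5 fell in SW48 and 4 in SW620, DUT by 0.60 and 1.17. E2F2 fell by 0.93 and 1.10, while CCNE1, which encodes cyclin E1, rose by 1.36 in SW620. In SW620, palbociclib library 1 stood apart: COL1A1 was at 117 CPM there and 3.26 and 3.13 CPM in libraries 2 and 3, and the CDK inhibitor CDKN1A at 28.9 CPM against 2.12 and 5.18 CPM. The fibroblast list summed to 31.2 to 156 CPM with palbociclib and 15.7 to 20.7 CPM in SW620 controls, with DCN at 0 in the palbociclib libraries. In SW48 it summed to 25.9 to 28.7 CPM with palbociclib and 14.7 to 15.3 CPM in controls. Leukocyte markers summed to 21.0 to 28.1 CPM with palbociclib and 12.6 to 14.4 CPM in SW48 controls (CD3E at 0 in both), and to 7.81 to 9.62 CPM with palbociclib and 4.01 to 5.31 CPM in SW620 controls (CD3E at 0 in the controls). RNR1 and RNR2 took 2.94% to 4.52% of counts with palbociclib and 0.97% to 1.60% in SW48 controls, and 2.86% to 3.22% with palbociclib and 1.35% to 3.51% in SW620 controls. The part of these measures in the result was not tested. Without that SW620 library, 28 of the 42 genes were lower and 1 higher, where 27.1% of genes were called.

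Trametinib in SW48 of set 2 moved the set both ways: 12 genes rose and 13 fell, where 60.1% of 12688 genes were called, 30.1% higher and 30.1% lower, so the share called in the set was close to that of all genes. Trametinib libraries lay wholly above the controls for 13 genes (34% of all genes) and below for 12 (31.7%). The median was −0.04, against 0.01 over all genes. By role, the calls divided into 6 of 11 licensing genes lower and 1 higher, and 3 of 7 polymerase genes higher and 1 lower. Among clamp and lagging-strand genes PCNA, FEN1 and LIG1 were higher and RFC3, RFC4 and RFC5 lower. GINS2 was higher and MCM10 and DBF4 lower among firing genes, and CLSPN and TIMELESS were higher and TIPIN lower at fork protection. CHAF1B and FAM111B were higher. With 30.1% of all genes called each way, a split between roles was not tested. A different split came from other settings, 8 higher and 14 lower with no filter on low counts, and 8 higher and 13 lower with DESeq2. Fitting every set 2 group together, 16 were called, 7 higher and 9 lower, where 6252 of 16304 genes were called.

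Lower genes were led by CDC6, with 57.1, 56.1 and 64.0 CPM with trametinib and 100.1, 103 and 105 CPM in controls (−0.81, SE 0.07, adjusted p = 6.5e-07). PRIM1 (−0.68), TIPIN (−0.59), ORC6 (−0.53), CDT1 (−0.50) and MCM7 (−0.48) followed, each with trametinib libraries wholly below the controls. Higher genes were led by FAM111B, with 11.7, 12 and 9.72 CPM with trametinib and 3.36, 4.25 and 3.83 CPM in controls (1.52, SE 0.18, adjusted p = 8.7e-06). LIG1 had 46.5, 53.9 and 53.3 CPM with trametinib and 26.8, 29.4 and 25.9 CPM in controls (0.88, SE 0.09). TIMELESS (0.87) rose and its partner TIPIN fell, and POLD1 (0.65), CLSPN (0.58) and POLE (0.52) were higher. GMNN had 49.1, 49.6 and 48.9 CPM with trametinib and 53.4, 50.1 and 47.6 CPM in controls, which overlapped (−0.05, adjusted p = 0.54).

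In set 1, with its own SW48 controls, trametinib raised 23 of the 42 genes and lowered 2, where 35.4% of 12235 genes were called, 16% higher and 19.4% lower, and the median was 0.69. Trametinib libraries lay wholly above the controls for 27 genes (23.6% of all genes) and below for 3 (26.3%). GINS2 had 43.8, 27.0 and 37.5 CPM with trametinib and 9.53, 13.9 and 12.3 CPM in controls (1.60, SE 0.23, adjusted p = 0.0013). LIG1 (1.57), WDHD1, which tethers polymerase alpha at the fork (1.57), CLSPN (1.46), CDC7 (1.31) and POLE (1.25) also rose. CDC6 fell by 1.05 and CDT1 by 0.84. WDHD1 ranged from 10.4 to 42.8 CPM among the controls and lost its call without control 2, trametinib 1 or trametinib 2, and CDT1 lost its call in 6 of the settings tried. Between the sets, 10 genes were higher in both and 2 lower in both, CDC6 and CDT1. MCM10 and RFC3 rose in set 1 and fell in set 2. The shares of all genes called alike in both sets are not given here, so these counts have no baseline. MCM10 stood at 24.2 ± 2.48 CPM in set 1 controls and 75.4 ± 3.82 CPM in set 2 controls.

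Several library measures moved with the trametinib results in SW48. Depth was 4063382 to 5211206 counts with trametinib and 6127950 to 8068003 counts in controls of set 1. In set 2 it was 8214388 to 8859475 and 9177649 to 9580735 counts. Epithelial markers summed to 2911 to 2965 CPM with trametinib and 4933 to 5453 CPM in controls of set 1. The same sums were 1871 to 1966 CPM and 4011 to 4178 CPM in set 2. In set 1, reads given to no gene because they did not align were 42.4% to 47.5% in trametinib libraries of SW48 and 22.4% to 38.0% in controls, and the share of RNR1 and RNR2 was 4.64% to 5.64% in trametinib libraries against 1.63% to 3.81% in controls. In set 2 they took 2.25% to 3.33% with trametinib and 0.97% to 1.60% in controls. Fibroblast markers summed to 70.9 to 84.9 CPM with trametinib and 5.58 to 20.6 CPM in controls, and in set 2 to 56.0 to 58.9 CPM with trametinib and 14.7 to 15.3 CPM in controls, with none of the 5 at 0 in all libraries of any of those groups. Leukocyte markers summed to 15.6 to 17.7 CPM with trametinib and 25.4 to 30.2 CPM in controls of set 1, and to 17 to 21.7 CPM with trametinib and 12.6 to 14.4 CPM in controls of set 2, with CD3E at 0 in each of these groups. The part of all these measures in the result was not tested. Mitotic genes were higher as well, 18 of 20 in set 1 (median 1.08, MKI67, the Ki-67 antigen, at 2.99) and 14 of 20 in set 2 (median 0.32, KIF20A at 1.07). CDKN2C, an inhibitor of CDK4 and CDK6, rose by 2.75 and 2.31, and CDKN1A fell by 0.53 and 1.45. SKP2, which marks CDK inhibitors for degradation, rose by 1.24 in set 2, and TK1 rose by 1.20 in set 1 and 0.77 in set 2.

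No gene of the set was called with trametinib in SW620 in either set, and 0% of all genes were in each (13081 and 12919 tested). Before adjustment, p was under 0.05 for 366 genes in set 1 (2 of them in the set) and 2204 genes in set 2 (9 of them in the set, all higher). Libraries in set 1 lay wholly above the controls for 3 genes of the set (5.05% of all genes) and below for 2 (4.83%). DESeq2 called 14 genes in set 1 and 208 in set 2; FAM111B was the sole gene of the set among them. FAM111B had 166.5, 193 and 219.6 CPM with trametinib and 139.9, 148 and 119.9 CPM in SW620 controls of set 2, so the libraries did not overlap (0.50, SE 0.13, adjusted p = 0.22). Trametinib libraries lay wholly above the controls for 16 genes of the set in set 2, against 11.4% of all genes, and below for 1, against 10.7%. Without trametinib library 1, FAM111B (0.61, adjusted p = 0.027) and MCM5 (0.46, adjusted p = 0.048) were called, where 6.71% of genes were.

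SW620 controls of set 1 varied widely. MCM5 had 60.6, 53.0 and 61.8 CPM with trametinib and 59.9, 62.6 and 212 CPM in controls, DBF4 had 90.6, 91.8 and 83.7 CPM with trametinib and 27.2, 62.9 and 10.0 CPM in controls, and PRIM1 was at 10.3 CPM in control 3. PGR, a hormone receptor of luminal breast cells, ranged from 0.21 to 179 CPM among these controls and was at most 0.75 CPM with trametinib. None of these differences passed the test.

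The trametinib effect in SW620 minus that in SW48 was called lower for 10 of the 42 genes in set 1, where 2.78% of 14525 genes were lower and 6.73% called. GINS2 (−2.01, SE 0.38, adjusted p = 0.011), CLSPN (−1.61), CDC7 (−1.48) and LIG1 (−1.44) led. The count ran from 3 without SW620 trametinib 3 to 18 without SW620 control 3. In set 2 the difference was called for 17 genes, 13 higher and 4 lower, where 28.2% of 14027 genes were called. CDC6 was higher by 0.92 (SE 0.10, adjusted p = 2.5e-05), RFC5 by 0.56 and MCM7 by 0.53, and FAM111B (−1.0), LIG1 (−0.86), POLD1 (−0.77) and TIMELESS (−0.61) were lower. With DESeq2 size factors the set 2 split was 8 higher and 5 lower.

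Set directly against palbociclib in the same line, trametinib libraries held more RNA of most of these genes. In SW48, 35 of the 42 were higher with trametinib than with palbociclib and none lower, where 21% of 12807 genes were higher. In SW620, 33 were higher and none lower, where 15.9% of 13232 genes were higher. The medians were 0.52 and 0.62, and in each line the trametinib libraries lay wholly above the palbociclib libraries for 37 genes (26.6% and 23.8% of all genes).

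FAM111B differed most in SW48 (3.18, SE 0.24, adjusted p = 2.8e-07), with 11.7, 12 and 9.72 CPM with trametinib and 1.40, 1.29 and 0.925 CPM with palbociclib. These palbociclib levels rest on low counts, so the size of that difference is uncertain. PRIM1 (1.91) and GMNN (1.34) followed, then TIMELESS (1.16), CLSPN (1.15) and GINS2 (1.09). In SW620, PRIM1 had 77.7, 68.5 and 51.0 CPM with trametinib and 16.5, 13.5 and 21.1 CPM with palbociclib (1.94, SE 0.18, adjusted p = 7.2e-05). FAM111B (1.33), GMNN (1.25), GINS2 (1.20), POLD3 (1.16) and UHRF1 (1.15) came next. ORC6, MCM5, DBF4, POLD1 and TIPIN passed in neither line, and CDC6 was higher by 0.28 in SW48 and did not pass in SW620. All 20 mitotic genes were higher with trametinib than with palbociclib in both lines (medians 0.77 and 0.85).

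Genes with an E2F word in the promoter window and genes without it had similar medians. With palbociclib the median was −0.70 over the 19 genes with a word and −0.57 over the 18 without in SW48, and −0.51 and −0.58 in SW620. With afatinib in BT-474 the medians were −1.35 and −1.46, and with trametinib in SW48 they were 0.73 and 0.66 in set 1 and −0.03 and −0.04 in set 2. These are descriptions over genes, with no test. PRIM1, whose window holds no exact word, fell more with palbociclib than any gene whose window holds one. Its window does hold TTCCCGCC, which is close to the word TTTCCCGC. Only exact words were counted, so the 18 genes without one are not shown to lack E2F sites. The medians therefore cannot separate genes with such sites from genes without them.

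Some of the genes could share reads with neighbours or copies. POLD1 and MCM7 have another annotated gene on the same strand near their 3′ end, and MCM2, GINS2, GINS4, RFC4, RFC5 and CHAF1A have one on the other strand, and whether counting used strand is not stated. With trametinib in SW48 of set 1, GSE1 at the GINS2 end rose by 0.79 (edgeR, adjusted p = 0.00027), where GINS2 rose by 1.60. EIF4A2 at the RFC4 end fell by 0.73, where RFC4 was not called (−0.13). WSB2 at RFC5 (−0.15) and UBXN6 at CHAF1A (−0.21) were not called. The part of these neighbours was not tested. DBF4, PCNA, RFC3, RFC5 and FEN1 have pseudogenes by name, so their values are uncertain to the extent that reads were split.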

How the data were processed

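RNA from 54 libraries of 6 cell lines was made into 3′-end libraries from 500 ng of total RNA, per the labels' protocols, so that 1 read stands near the end of a transcript. The authors deposited raw read counts per gene in a table for each set, on build hg38. The submitters' processing notes name Trimmomatic, STAR and featureCounts, with versions not given in the sources used here. In set 1, 5 closing lines count reads given to no gene (39.7% to 73.8% of reads); they were left out of library totals and tests. The second table also holds 12 columns identical to the set 1 table, which were not used again.

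Counts were tested per comparison with edgeR 4.0.16 (quasi-likelihood, TMM scaling, filterByExpr with a minimum count of 10 and total of 15) in R 4.3.3, with Benjamini-Hochberg adjustment over all genes tested and a threshold of 0.05. Each drug was set against controls of its line and set; differences between lines were tested as interactions. The scripts were tested on simulated data. CPM in the text used TMM over all libraries of a set, with exceptions. Plain library totals were used for marker genes of cell type and line (such as EPCAM and ERBB2) and their sums. They were also used for COL1A1 and CDKN1A in the SW620 palbociclib libraries. Alternatives were DESeq2 1.42.0, its size factors, no filter, 1 fit over all groups of a set, a replicate block, a minimum absolute log2 fold change of 1, and leaving out each library. Counting error alone is smallest in the deepest libraries. The genes and lists were chosen with earlier results of these data known. Genes named in the text were called genes with non-overlapping libraries (up to 6 lowest and 6 highest per comparison), called genes against the main direction, a fixed set of representatives per role, the 6 widest and 4 narrowest ranges between lines, and up to 4 genes per further list; others named with their values were chosen after these were seen.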

Additional observations from a re-analysis of the deposited data

Results flagged for a closer look

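The effect of a drug differed between lines, in tests of the difference itself (edgeR's quasi-likelihood interaction test), in the following cases. Afatinib in BT-474 minus BT-20 was called for 39 of the 42 genes, all lower, where 13.6% of all genes were lower, with FAM111B at −5.03, ORC6 at −3.06 and MCM10 at −3.0 on the log2 scale. Palbociclib in SW620 minus SW48 was called for 13 of the 42, a share near the 25.7% of all genes called, among them LIG1 (−1.05), POLE (−0.74), RFC2 (−0.50), CDC6 (1.01), FAM111B (0.85) and GINS4 (0.79). Trametinib in SW620 minus SW48 was called for 10 genes in set 1, where 6.73% of all genes were called, among them GINS2 (−2.01), CLSPN (−1.61) and CDC7 (−1.48). In set 2 it was called for 17 genes, where 28.2% of all genes were called, among them FAM111B (−1.0), LIG1 (−0.86), POLD1 (−0.77), CDC6 (0.92), RFC5 (0.56) and MCM7 (0.53). CDC7 in set 1 lost its call in 12 of the alternatives, TIMELESS with palbociclib in 9, RFC2 in 8, FAM111B in 7, and POLD1 and RFC5 in set 2 in 3 each. The count of 17 was 7 with all groups in 1 fit and 9 to 17 with 1 library left out, and the count of 13 was 7 and 8 to 13.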

How the results depend on the processing

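With a log2 change of 1 or more in size also required, the genes called numbered 12 for trametinib in SW48 of set 1 and 1 in set 2, 4 for palbociclib in SW48 and 3 in SW620, 1 for the trametinib difference in set 2, 2 for the palbociclib difference, and 6 for trametinib against palbociclib in each line. With all groups of a set in 1 fit they numbered 16 for trametinib in SW48 of set 2 (6252 of all 16304 genes called), 8 for afatinib in NCI-N87 (8.75% of all genes), 7 for the set 2 trametinib difference (3422 genes), 7 for the palbociclib difference (2940 genes) and 3 for NCI-N87 minus MKN-45. With no filter on low counts, 1 gene was called with trametinib in SW620 of set 2, 1 with afatinib in NCI-N87, 6 for the set 1 trametinib difference and 1 for NCI-N87 minus MKN-45. DESeq2 called 1 for trametinib in SW620 of set 2 and 20 for the set 1 trametinib difference. The cause of these shifts was not tested. Counts with no figure for all genes beside them, among them those under the log2 rule, have no baseline here.

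Leaving out 1 library at a time gave 0 to 2 genes for trametinib in SW620 of set 2, 0 to 17 for afatinib in NCI-N87, 0 to 13 for NCI-N87 minus MKN-45, 3 to 18 for the set 1 trametinib difference, 9 to 17 for that of set 2 and 8 to 13 for the palbociclib difference. Over all genes, in the same order, the calls numbered 0 to 882, 0 to 2108, 0 to 1315, 493 to 2439, 3175 to 4118 and 2991 to 3513. The set 1 difference moved by over 1.5 times without any 1 library except SW48 control 1 and SW620 controls 1 and 2. That of set 2 did so without SW48 control 1 or 3, any SW48 trametinib library, SW620 control 1 or 3, or SW620 trametinib 2. The ranges were 39 to 41 for afatinib in BT-474, 35 to 37 and 27 to 32 for palbociclib in SW48 and SW620, and 18 to 22 and 18 to 25 for trametinib in SW48 of sets 1 and 2. Over all genes, in the same order, they were 4515 to 5311, 6438 to 6961, 3336 to 4736, 3309 to 3851 and 6855 to 7260. Leaving aside the minimum log2 change of 1, 17 of 86 values of named genes lost a call under some alternative, and 0 changed direction. That rule was not applied in counting lost calls of single genes, here or above, and many named changes are smaller than it.

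Same-numbered replicates showed no strong pairing: correlations of their deviations ran from −0.187 to 0.123. Such values cannot show whether these samples were handled together. With a replicate block the counts were 22 and 24 for trametinib in SW48 of sets 1 and 2, 38 and 30 for palbociclib in SW48 and SW620, and 40 for afatinib in BT-474. Counts over all genes are not given beside these. POLD1 was among the genes of low counts (4.27 CPM in the lowest BT-474 library), and whether depth bears on its missed call was not tested.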
